A study of Saccharomyces cerevisiae with 2 samples.

Results

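SNR190, SNR75, SNR18, SNR38 and SNR66 are C/D box snoRNAs of Saccharomyces cerevisiae that pair with 25S rRNA, and they were 5 of the 36 RNAs in the deposited snoRNA list of an Rbp95 crosslinking experiment. They were chosen by name, with their levels already known, as C/D box snoRNAs that general knowledge pairs with the 25S rRNA. Other listed C/D box guides of the 25S rRNA were not among them and are given below. The values of the 5 were read from the list as deposited. Association of RNA with Rbp95, a factor of early pre-60S particles, was measured by crosslinking and analysis of cDNA (CRAC), in which UV light links proteins to RNA in living cells and the RNA fragments that copurify with a tagged protein are sequenced. One library came from BY4741 cells with an HTP tag (His, TEV site, ProtA) on Rbp95 and the other from untagged BY4741 cells as a mock control, so there was 1 library per condition. Both cultures were grown to an OD of 0.6 in minimal glucose medium without tryptophan, crosslinked for 100 s, and their libraries amplified by 16 PCR cycles. The control strain carried no tag at all and shows what the purification retains without a bait. With 1 library per condition no difference between the libraries had a replicate check, and none was tested.

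C/D box snoRNAs assemble with Nop1 (fibrillarin), Nop56, Nop58 and Snu13 into particles that add a methyl group to the ribose of chosen rRNA nucleotides. An antisense element just upstream of box D or D′ pairs with the rRNA, and the rRNA nucleotide paired at a fixed distance from that box is the one methylated. Most such RNAs of yeast act on the pre-rRNA in the nucleolus, and a few, such as snR190, are thought to act by pairing alone.

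The target sites are shown first, because the reads on the rRNA are described below relative to them. Each sequence is the reference of the 35S pileup around a target, 5′ to 3′, with the target nucleotide in capitals and the remainder in lower case (T stands for U). The targets are G2395 for SNR190 (a nucleotide within its proposed pairing, as it is not known to be methylated), G2288 for SNR75, A649 and C650 for SNR18, G2815 for SNR38 and U2417 for SNR66, in 25S rRNA numbering. These assignments come from general knowledge of yeast snoRNAs and not from the deposited files. The listed base was found at 38 of 38 target nucleotides of 31 C/D box snoRNAs when nucleotide 3252 of the 35S pre-rRNA was taken as the first of the 25S rRNA, and at no more than 16 of 38 at any of 40 other offsets within 20 nucleotides. The 25S rRNA lies on the minus strand of chromosome XII in the R64 assembly, and the coordinates given are those of the RDN37-1 copy, within the exon of the mature 25S rRNA.
SNR190 (chrXII:452772-452802): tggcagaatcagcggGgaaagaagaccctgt
SNR75 (chrXII:452879-452909): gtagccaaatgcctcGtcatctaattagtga
SNR18 (chrXII:454517-454548): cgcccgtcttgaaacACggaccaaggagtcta
SNR38 (chrXII:452352-452382): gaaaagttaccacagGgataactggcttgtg
SNR66 (chrXII:452750-452780): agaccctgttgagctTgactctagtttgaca

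All 5 snoRNAs were listed with Rbp95-HTP, and only SNR190 was listed in the control. The unit of the lists is reads out of 100000, and whether reads were scaled or subsampled to that number is not stated, so the values carry no counting interval. SNR190 had 193 reads per 100000 in the Rbp95-HTP library and 2 in that of the untagged strain. It is thought to act as an RNA chaperone in early pre-60S particles, with proposed pairing sites in domain V and domain I. SNR75, which guides methylation of G2288, had 113 reads per 100000. SNR18, the guide for the adjacent nucleotides A649 and C650 in the 5′ part of the rRNA, had 74 reads per 100000. SNR38, the guide for G2815 in domain V, had 59 reads per 100000. SNR66, the guide for U2417 in domain V, had 37 reads per 100000.

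The levels thus spanned a 5.22-fold range from SNR66 to SNR190, and SNR190 was 1.71-fold above SNR75, the next of the 5. Together the 5 held 476 of the 3046 reads per 100000 that the Rbp95-HTP list assigned to snoRNAs, or 15.6%, a share that depends on which RNAs were named. With an RNA absent from the control list taken as 0, all 5 exceeded the control by at least 10 reads per 100000, but so did 33 of the 36 listed RNAs (91.7%), so this count sets the 5 apart from nothing else in the list. The control list held 6 RNAs and 8176 reads per 100000, of which 8170 were SNR17A, the U3 snoRNA required for small-subunit processing, which had 123 with Rbp95-HTP. The 2 reads per 100000 of SNR190 in the control should be read against that background, and a fold difference was not formed from it.

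**Figure D1:**
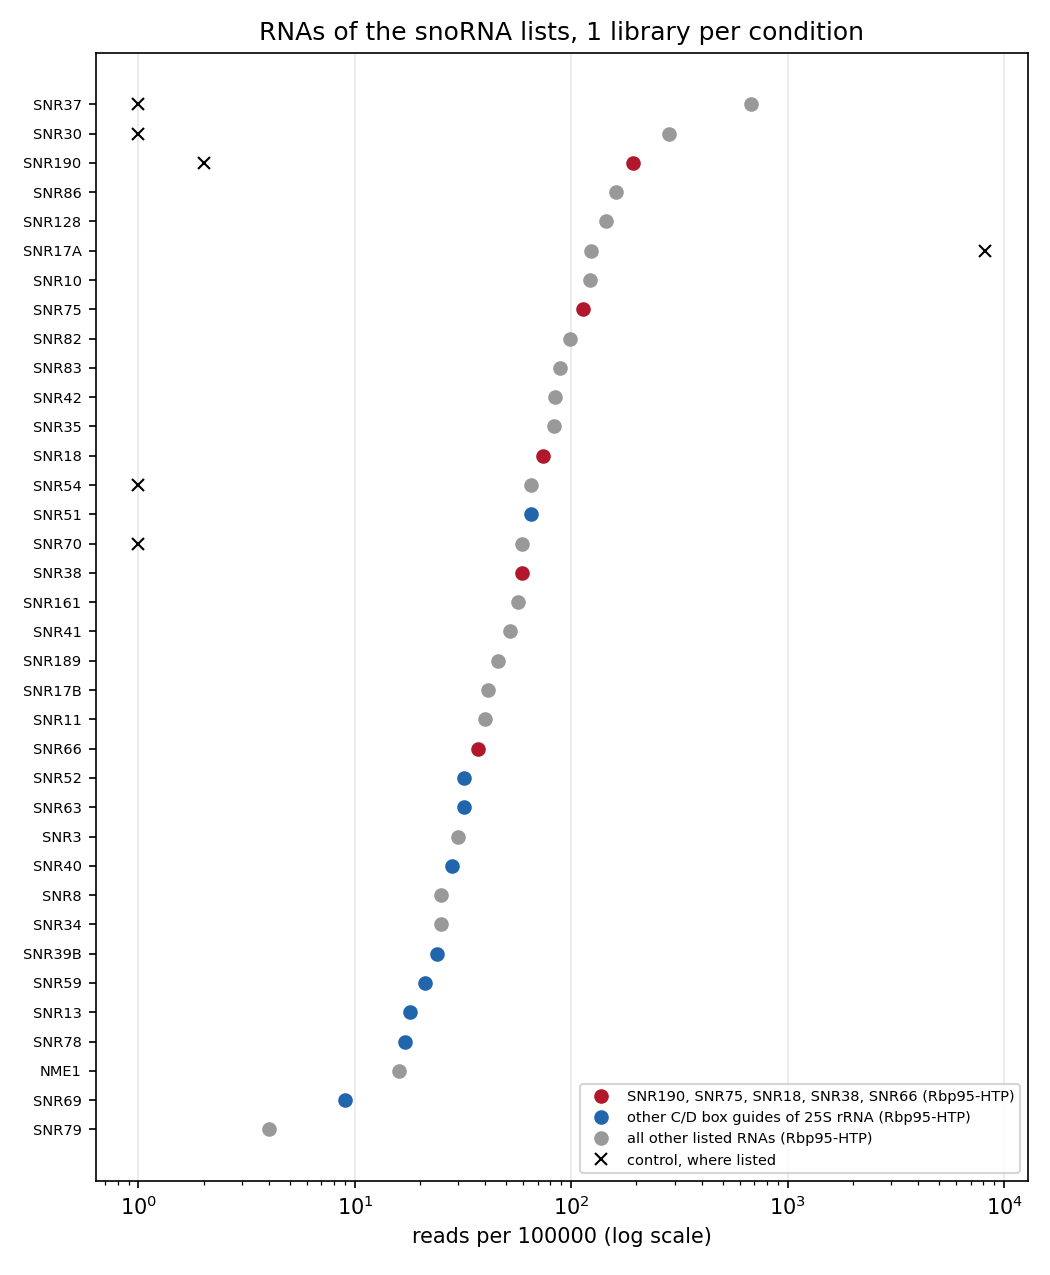
Reads per 100000 (x axis, log scale) of each of the 36 RNAs in the snoRNA list with Rbp95-HTP (circles) and, where listed, in the control (crosses), with 1 library per condition and no error bars. SNR190, SNR75, SNR18 and SNR38 lie above the list's median of 54.5 and SNR66 lies below it at 37, while only SNR190 of the 5 has a control value, 2.

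SNR190 ranked 3 among the 36 RNAs, between SNR30 with 284 and SNR86 with 161 reads per 100000. SNR75 ranked 8, between SNR10 with 122 and SNR82 with 99. SNR18 ranked 13, between SNR35 with 83 and a tie of SNR54 and SNR51 at 65. These neighbours are H/ACA box snoRNAs, the class that guides pseudouridylation, except SNR54 and SNR51, which are C/D box guides. SNR38 shared rank 16 with SNR70 at 59 reads per 100000, below SNR54 and SNR51 and above SNR161 at 57. SNR66 ranked 23, between SNR11 with 40 and a tie of SNR52 and SNR63 at 32. Without replicates, it cannot be said which of these neighbours differ by more than the error of the measurement.

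The list named 21 C/D box snoRNAs, 14 H/ACA box snoRNAs and NME1, the RNA of RNase MRP. Among the 21 C/D box snoRNAs the ranks were 1 for SNR190, 4 for SNR75, 5 for SNR18, 8 for SNR38 and 12 for SNR66. SNR128 (U14, which pairs with 18S rRNA) and SNR17A separated SNR190 from SNR75. Leaving out both U3 genes, the 5 held 45.5% of the 1047 reads per 100000 on 19 C/D box snoRNAs. As the 5 were named with their levels known, that share describes the choice and was not tested.

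Gene length changed the order. The RefSeq genes are 190 nucleotides long for SNR190, 102 for SNR18, 95 for SNR38, 89 for SNR75 and 86 for SNR66. Per 100 nucleotides of gene, SNR75 came first with 127 reads per 100000, followed by SNR190 with 102, SNR18 with 72.5, SNR38 with 62.1 and SNR66 with 43.0. The range between the highest and lowest narrowed from 5.22-fold to 2.95-fold. On this scale the ranks among the 36 RNAs rose to 2 for SNR75, 6 for SNR18, 7 for SNR38 and 12 for SNR66, and that of SNR190 moved to 4, while the median of the list was 29.0. All 5 lay above that median, whereas SNR66 lay below the median of the unscaled list. Of the other listed C/D box guides of 25S rRNA, SNR51 (60.7) and SNR52 (34.8) also lay above it and the rest lay below. The 5 were named with their levels known, so this count was not tested.

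**Figure D2:**
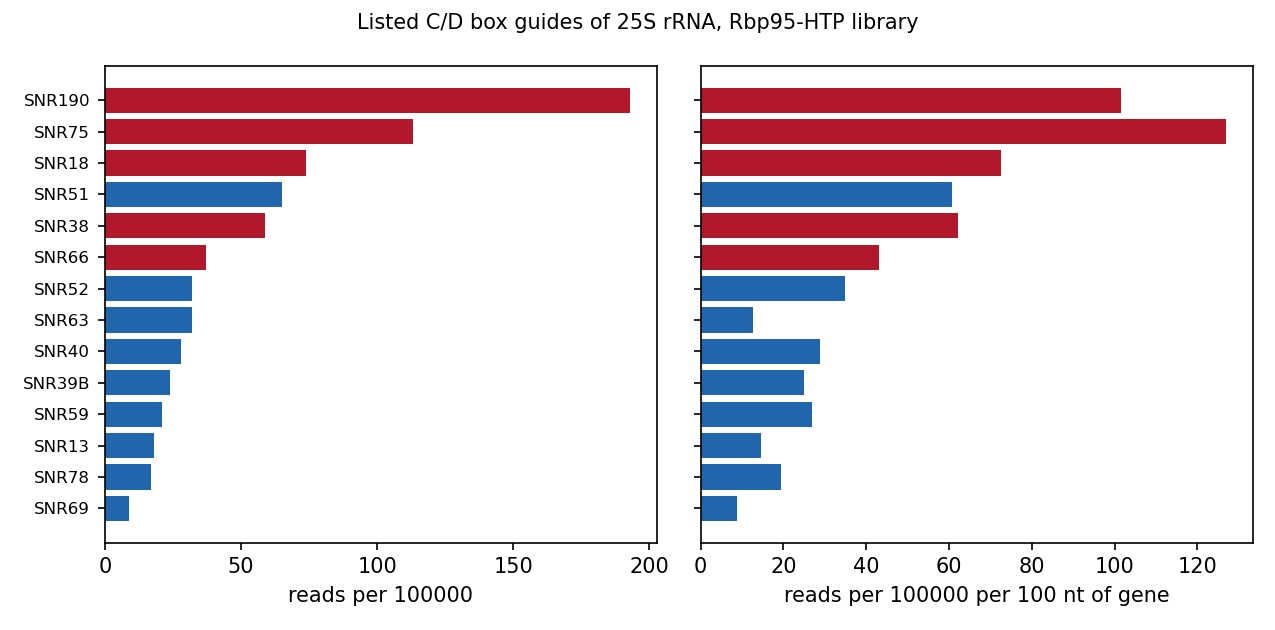
Level of the 14 listed C/D box guides of 25S rRNA with Rbp95-HTP, as reads per 100000 (left) and as reads per 100000 per 100 nucleotides of gene (right), from 1 library and without error bars. SNR190 is counted among the guides, though it is not known to guide methylation. The 5 snoRNAs are in red and the other guides in blue; SNR190 leads on the left with 193 and SNR75 on the right with 127.

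The 5 are not all C/D box snoRNAs that pair with the 25S rRNA. A list of 26 further guides of 25S methylation was drawn up, of which 9 were in the deposited list and 17 were not. The 9 had a median of 24 reads per 100000 and a range from 9 to 65, against a median of 74 and a range from 37 to 193 for the 5. The highest of the 9 was SNR51, the guide for U2729, whose 65 reads per 100000 exceeded both SNR38 and SNR66. SNR52 and SNR63 followed with 32 each, and then SNR40 with 28, SNR39B with 24, SNR59 with 21, SNR13 with 18, SNR78 with 17 and SNR69 with 9. Of the 5 named snoRNAs, 4 lay above the list's median of 54.5 reads per 100000, against 1 of these 9. The 5 were named with their levels already known, so that difference describes the choice and was not tested. The lowest value in the Rbp95-HTP list was 4, and a guide that was not listed has no value here.

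The genes of the 5 have different arrangements, and the neighbouring genes were not represented alike. SNR190 lies on chromosome X (139761 to 139950, minus strand), 69 nucleotides from SNR128, with which it is made as a shared precursor. SNR128 had 145 reads per 100000, 1.33-fold less than SNR190. SNR75 lies on chromosome XIII (297918 to 298006, plus strand) in a run of C/D box genes transcribed as a cluster, with 6 others within 1000 nucleotides on the same strand. Of those 6, only SNR78 was listed, at 17 reads per 100000, 6.65-fold less than SNR75, while SNR77, SNR76, SNR74, SNR73 and SNR72 were not. SNR18 lies on chromosome I (142367 to 142468) inside EFB1, which encodes a subunit of translation elongation factor 1B, and SNR38 on chromosome XI (283185 to 283279) inside TEF4, which encodes another subunit of that factor. Both are released from introns of these genes. SNR66 lies on chromosome XIV (586090 to 586175) with no other snoRNA gene within 1000 nucleotides on its strand and no gene spanning it. NME1, the RNase MRP RNA gene, lies 163 nucleotides from it on the same strand and had 16 reads per 100000, below the 37 of SNR66.

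The reads on the 25S rRNA itself were then examined around the target of each snoRNA. The pileup gives, for each nucleotide of the 35S pre-rRNA, the number of reads covering it (hits), and holds 2922907 hits for Rbp95-HTP and 4024737 for the control. Rises along the pileup account for at least 97296 and 99994 reads, respectively, and the starts and ends of reads given below are net rises and falls between adjacent nucleotides. A nucleotide with 0 hits therefore allows a share of up to 0.00308% of those reads with Rbp95-HTP and 0.00300% in the control. These limits, and the folds below that rest on the same floor of 3 hits, cover counting error only and take each read as an independent molecule, whereas many reads share their ends. Of the Rbp95-HTP hits, 66.9% lay in the highest peak, between nucleotides 6262 and 6298, and none of the target windows overlaps it. The window taken for each target was the nucleotide with 15 on either side. No control read covered any nucleotide of the windows of the 5 snoRNAs, and 76.3% of the 25S rRNA was likewise without a control hit.

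SNR190 and SNR66, the snoRNAs with the highest and the lowest level of the 5, had no hit with Rbp95-HTP anywhere in their windows. Their targets lie 22 nucleotides apart in the same uncovered stretch of 78 nucleotides (35S nucleotides 5629 to 5706), which ranked 3 by length among 35 such stretches in the 25S rRNA. The stretch also holds U2421, the target of SNR78, and is shown whole because it carries all of these targets, which are in capitals in the order SNR190, SNR66, SNR78.
uncovered stretch (chrXII:452727-452804): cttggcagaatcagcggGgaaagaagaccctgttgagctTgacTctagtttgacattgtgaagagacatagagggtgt
The stretch was bordered by covered rRNA on both sides. Upstream, a block of up to 209 hits ended 18 nucleotides before the SNR190 target, where 162 reads stopped at the same nucleotide. Downstream, a block of 88 hits began 39 nucleotides after the SNR66 target.

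SNR75 had no hit at its target nucleotide (35S nucleotide 5539) and hits on 11 of the 31 nucleotides of its window. The target lay in an uncovered stretch of 20 nucleotides (5526 to 5545). Reads upstream ended 14 and 15 nucleotides before the target, 44 of them at the latter position. Downstream, 111 reads began 7 nucleotides after the target and a further 87 began 11 nucleotides after it, which brought the hits to 198. The short stretch also holds A2280 and A2281, the targets of SNR13, which had 18 reads per 100000 in the snoRNA list.

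SNR18 had 1 hit at each of its target nucleotides, A649 and C650 (35S nucleotides 3900 and 3901). Immediately before A649 the coverage was 56 hits, and 55 of those reads ended on the nucleotide preceding A649. No read covered the rRNA from 3 to 40 nucleotides after A649, and the next block, of 120 hits, began 41 nucleotides after it. The boundary of the upstream block thus lay directly next to the methylated pair.

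SNR38 was the only one of the 5 whose target window was covered throughout. Its target G2815 (35S nucleotide 6066) had 70 hits, and the window ranged from 9 to 102 hits. The hits rose from 9 to 70 at the position 2 nucleotides before the target, where 61 reads began. A further 32 began 4 nucleotides after the target.

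**Figure D3:**
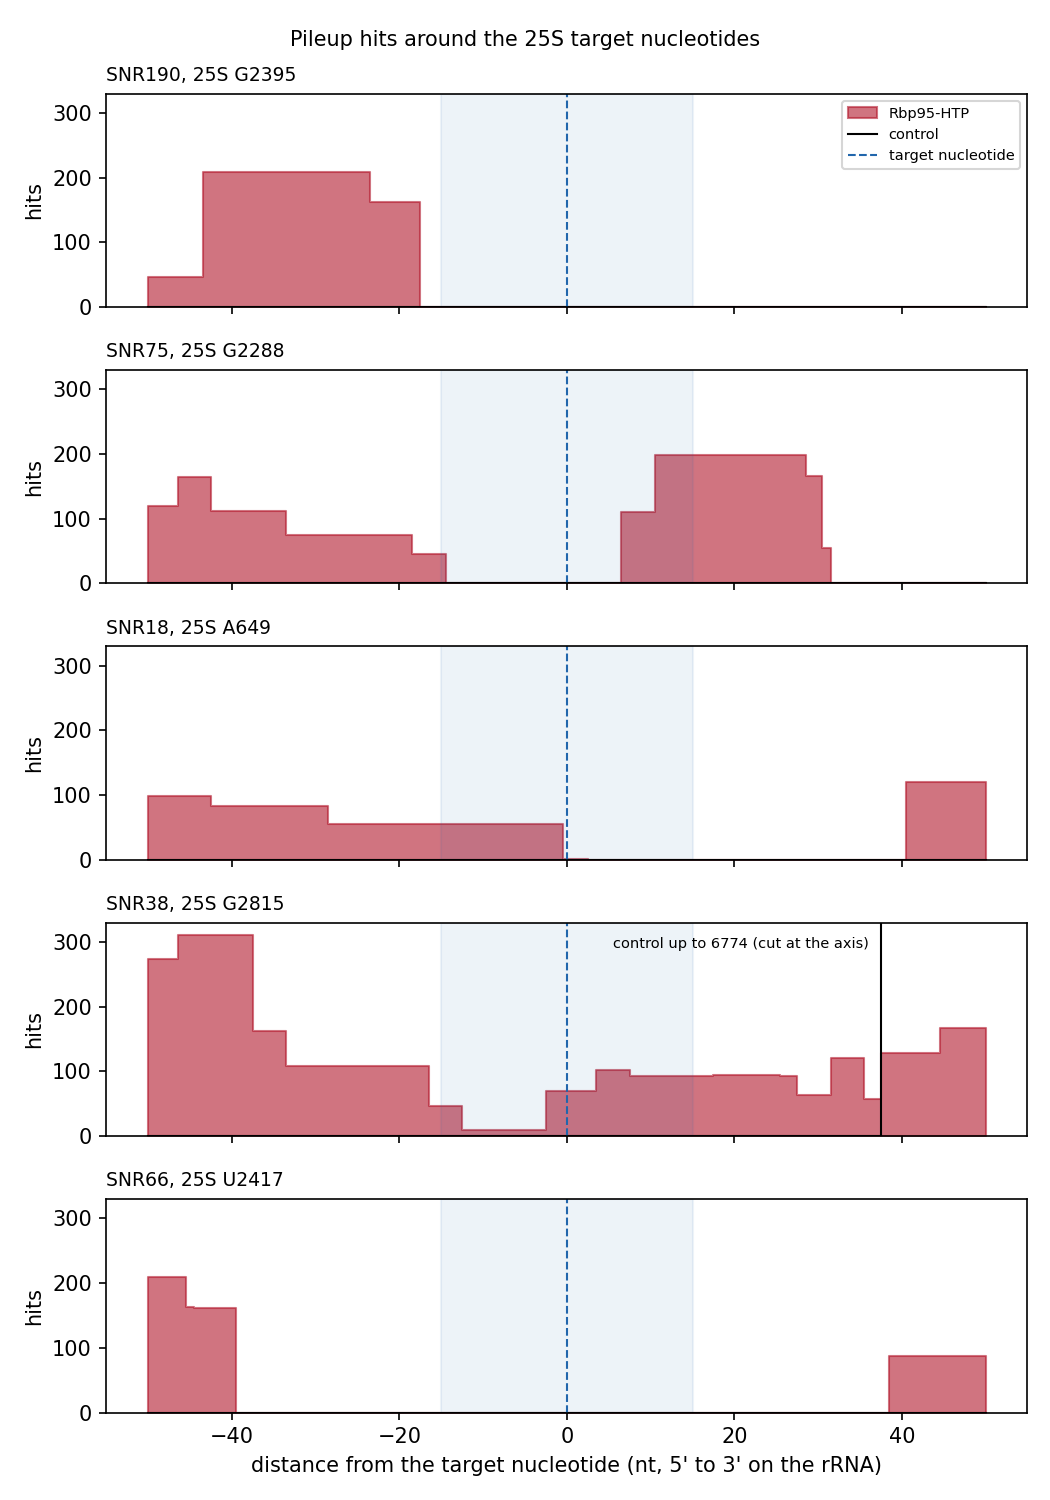
Hits (y axis) of Rbp95-HTP (red area) and the control (black line, cut at the top of the axis for SNR38) against the distance from the target nucleotide (x axis, nucleotides, 5′ to 3′), with the target as a dashed line and the window of 15 nucleotides on either side shaded. The windows of SNR190 and SNR66 hold no hit, the block before the SNR18 target falls from 56 hits to 1 at A649, and the SNR38 target has 70 hits; the control is at 0 except from 38 nucleotides after the SNR38 target, where it reaches 6774.

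Relative to the total of 35S hits in each library, 4 of the 6 target nucleotides of the 5 snoRNAs (both of SNR18, whose windows overlap, and those of SNR75 and SNR38) had windows at least 2-fold higher with Rbp95-HTP, with the control floored at 3 hits per nucleotide. The same held for 2513 of the 3366 windows of this width across the 25S rRNA (74.7%), so the share at the targets was close to that of the 25S rRNA as a whole. The window of SNR38 had a mean of 58.2 hits and was at least 26.7-fold higher. That of SNR75 had a mean of 47.7 hits and was at least 21.9-fold higher. That of A649 had a mean of 27.2 hits and was at least 12.5-fold higher. These bounds depend on the scaling of the hits. All of these means lay below the median window of the 25S rRNA, 80.8 hits, and 39.3%, 34.6% and 26.6% of the windows, respectively, were lower. SNR190 and SNR66 had no fold, since both libraries were at 0, as were 13.2% of the windows with Rbp95-HTP. For SNR38 the direction depended on the width of the window, because the control hits that begin 38 nucleotides downstream enter a window of 50 nucleotides on either side.

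Across all the 25S guides considered, with SNR190 counted among them, the target nucleotide itself was uncovered with Rbp95-HTP at 17 of 37 distinct nucleotides (45.9%). This compares with 33.0% of all 25S nucleotides, and with 3 of the 6 of the 5 snoRNAs. No control read covered any of the 37. Of the targets of the 9 other listed guides, 3 of 10 had an empty window, and of those of the 17 guides that were not listed, 5 of 22. The median window mean was 26.3 hits for the 6 targets of the 5 snoRNAs, 28.5 for the 10 of the other listed guides and 67.6 for the 22 of guides that were not listed. These targets are not independent, as several lie within a few nucleotides of each other and share reads. The most covered window belonged to SNR69, with a mean of 627 hits and 9 reads per 100000 in the snoRNA list, while that of SNR190, with 193, was empty. The SNR190 window lies at a proposed pairing site, and its other proposed site, in domain I, was not analysed. Among the windows taken here, the level of a snoRNA and the coverage of its target did not follow the same order.

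**Figure D4:**
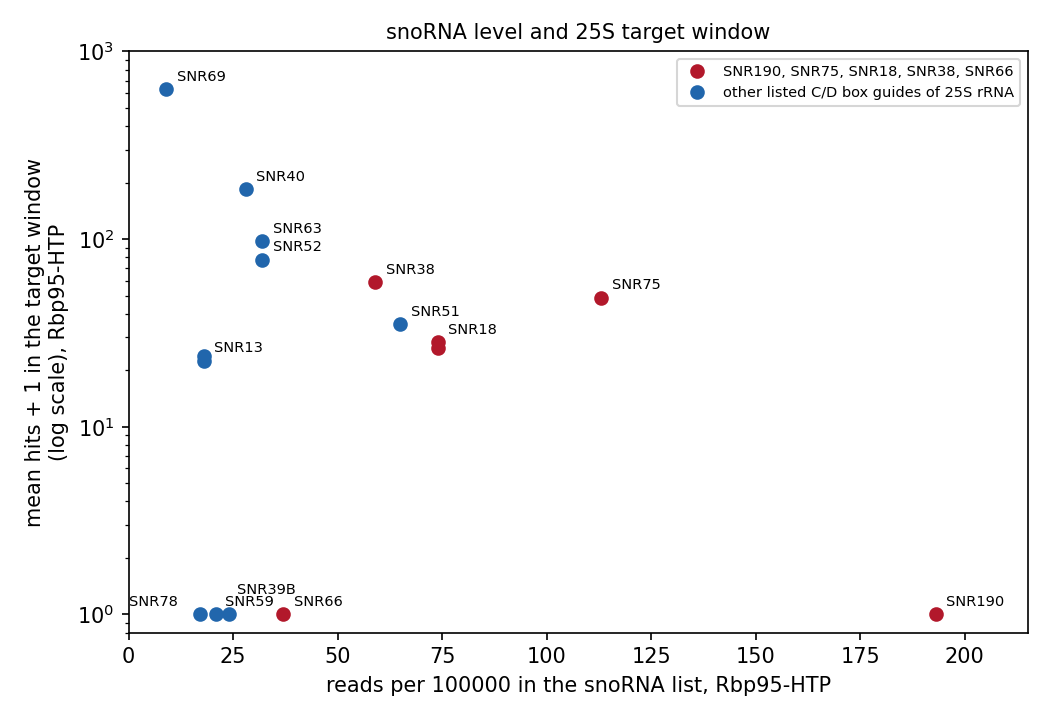
Mean hits plus 1 in the target window (y axis, log scale) against reads per 100000 in the snoRNA list (x axis), both with Rbp95-HTP, for the 16 target nucleotides of the 14 listed C/D box guides of 25S rRNA; a guide with adjacent targets has a point for each. SNR190 is counted among the guides, though it is not known to guide methylation. SNR190 at 193 reads per 100000 lies at an empty window, and SNR69 at 9 lies at the highest, a mean of 627 hits.

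Substitutions and deletions in CRAC reads can mark the crosslinked nucleotide, and were examined around the same targets. Within 15 nucleotides of a target, 13 nucleotides had at least 100 hits, and none of them was altered in 10% or more of its hits (5 altered of 1842 hits in all). In the whole 25S rRNA, 13 of 1424 nucleotides with at least 100 hits reached 10% (0.913%). At a minimum of 20 hits, 46 nucleotides could be examined and 1 reached 10% (2.17%), against 17 of 2150 in the whole 25S rRNA (0.791%). This was the A that lies 3 nucleotides before A649 of the SNR18 site. It was substituted in 12 of 56 hits (21.4%, 95% Wilson interval 12.7 to 33.8) and lies in the block of reads that ends just before A649.

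Within 50 nucleotides of a target, 258 nucleotides had at least 20 hits, and 4 of them reached 10% (1.55%, against the 0.791% of the whole 25S rRNA), that A and 3 more that lie farther from the targets. With so few nucleotides, which share reads, these shares were not tested against each other. The width of 50 nucleotides was chosen for altered nucleotides after seeing the data. The T 19 nucleotides before the SNR75 target was substituted in 45 of 75 hits (60.0%, interval 48.7 to 70.3). The T 47 nucleotides before it was substituted in 37 of 120 hits (30.8%, interval 23.3 to 39.6). The C 43 nucleotides before the SNR38 target was substituted in 65 of 311 hits (20.9%, interval 16.8 to 25.8). None of these 4 nucleotides had a deletion, and none had a control hit to compare with. Around SNR190 and SNR66, the altered share of the flanking blocks stayed at or below 2.27% at every nucleotide with at least 20 hits. The intervals cover counting error only, since many of the reads share their ends and copies made by PCR are not independent molecules.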

How the data were processed

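CRAC was performed on a Rbp95-HTP strain and an untagged strain, with 1 library each. The authors trimmed reads with Flexbar, aligned them with Novoalign (R64 in the submitters' processing notes) and used pyCRAC for all later steps. Versions and any collapsing of PCR duplicates are not given in the sources used here. Copies kept as separate reads would raise single blocks of hits. The deposited snoRNA lists give each RNA a score, reads out of 100000, which was not treated as a count. The deposited 35S pileups hold counts of covering, substituted and deleted reads at each of 6858 nucleotides, from a pileup limited to 100000 reads. The class overview was not used. The series' design text names another tagged protein (Nap1) and the methods another control strain (BY4742) and sequencer than the labels. The labels were followed.

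Gene lengths, positions and the start of the 25S rRNA came from RefSeq (R64), in which all 36 listed names matched. Windows of 31 nucleotides around the targets were averaged, divided by the library's 35S hits and compared, with the control floored at 3 hits. A value was called 2-fold higher on that ratio. Altered shares of single nucleotides needed at least 100 hits, or at least 20 where stated. Those of the named nucleotides carry 95% Wilson intervals. The window code was tested on simulated data. Target nucleotides and snoRNA classes come from general knowledge. The named genes were the 5 snoRNAs, a list of 26 other guides, the neighbours by rank and the neighbouring and host genes. Members, lists and tests were chosen with earlier results of these data known. Python 3.11.15 and numpy 2.4.6 were used.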

Additional observations from a re-analysis of the deposited data

How the results depend on the processing

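Subtracting the control moved SNR190 to 191 reads per 100000 and left the other 4 unchanged. Per 100 nucleotides of gene, the levels were 101.6 for SNR190, 127 for SNR75, 72.55 for SNR18, 62.11 for SNR38 and 43.02 for SNR66. The share of the 5 was 16.52% without SNR17A and SNR17B and 27.14% with values divided by gene length. At the target nucleotide alone, 1 of the 6 targets was at least 2-fold higher with Rbp95-HTP. The count was 5 with 50 nucleotides on either side, and 4 relative to hits outside the highest peak, relative to 25S hits or without scaling. At 50 nucleotides, SNR190 (at least 24.91-fold) and SNR66 (at least 13.97-fold) entered through hits outside their empty windows, and SNR38 dropped out. The share of all 25S nucleotides or windows called at these settings is not given here, so the counts have no background to be read against. The SNR38 ratio turned to 0.1896 with 50 nucleotides on either side, where the control hits downstream enter. Without scaling, the lower bounds for SNR38, SNR75 and A649 fell to 19.4, 15.91 and 9.065. Relative to 25S hits they were 21.01, 17.24 and 9.818. Relative to hits outside the highest peak they rose to 80.63, 66.15 and 37.68. The count of altered nucleotides was 0 with substitutions only, 1 from 20 hits and 2 with 50 nucleotides on either side, a width chosen after seeing the data. No paired analysis was possible because each condition had 1 library, and leaving out a replicate was not possible for the same reason. The search for complementarity of guide elements, with or without G-U pairs, was not run, as no snoRNA sequence was used here. The second proposed site of SNR190, in domain I, was not analysed here. The depth behind the snoRNA lists is unknown.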
